A study of Mus musculus with 38 samples.

Results

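DNA methylation is written by the Dnmt methyltransferases and is removed actively by a chain of enzymes. Here 10 genes of this cycle were followed in pools of cells collected as dentate gyrus granule neurons, which also held reads of glial and interneuron markers. Dnmt3a places new methyl groups and Dnmt1 copies them after replication. Tet1, Tet2 and Tet3 oxidise methylcytosine, Tdg excises the oxidised base, Apex1 cuts the resulting abasic site, and Gadd45a, Gadd45b and Gadd45g are small stress- and activity-inducible proteins that have been linked to the recruitment of this repair to chosen genes. Gadd45b in particular is known as an immediate early gene of dentate granule neurons that bears on demethylation at growth factor genes such as Bdnf and Fgf1. The 10 genes were taken by symbol from the 23420 genes counted in every library, and all 10 symbols were present. Because the RNA was counted and not the methylation, every value below is a transcript level.

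The libraries came from adult male Arc::dVenus mice on a C57BL/6J background, in which the Arc promoter drives a destabilised Venus protein, so that dVenus+ neurons are those in which that promoter had recently been active. All groups carried this reporter. Fear-conditioned mice (FC, 12 mice) received foot shocks paired with tones in a conditioning chamber and no-shock mice (NS, 4 mice) went through the same session with the shocks left out, both sampled the day after training, and home-cage mice (HC, 3 mice) were not trained. From each mouse, 10 dVenus+ and 10 neighbouring dVenus- cells were aspirated with patch pipettes and pooled by reporter state, which gave 38 libraries of 10 cells and a pair in each of 19 mice. A library is therefore 1 pool, and with so few cells a transcript present in some of them can be read deeply or missed.

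The libraries held 1352288 to 18394761 reads counted on genes (median 8013005) and between 7037 and 13286 detected genes. The prefix of the sample numbers split the FC mice into 3 experiments, of 6, 4 and 2 animals, while the 7 mice of the other groups shared another prefix, so levels in FC and in the other groups cannot be told apart from the experiment. Each dVenus+ library was compared with its partner from the same mouse, which lies in the same experiment. Arc served as the check of the labels, with 477 to 1540 normalized CPM in FC dVenus+ libraries (median 830) and 0 to 172 in FC dVenus- libraries (median 0.565), and it was higher in dVenus+ in 19 of 19 mice. However, the dVenus- libraries of FC mice 06, 07 and 14 held 1276, 1095 and 2549 Arc reads, where the other 9 held 0 to 16. Gadd45b, Bdnf, Cdkn1a and Gadd45a are therefore also given without these mice, while the cell type markers that were called are not. Of 8 granule cell markers, Prox1, Calb1, Dsp, Pdzd2 and Rfx3 were counted in every FC library, C1ql2 in all but 1, and Lct and Tdo2 in 10 and 7 of 12 dVenus+ and in 11 and 10 of 12 dVenus- libraries. Their summed level was lower in dVenus+ in 19 of 19 mice, with medians of 471 and 1220 normalized CPM in the FC dVenus+ and dVenus- libraries. Single markers did not all follow the sum. In FC 7 of the 8 had a negative and 1 a positive log2 fold change, and Pdzd2 was higher in dVenus+ in 11 of 12 FC mice. By the rule given below, 1 of the 8 granule cell markers was called lower in dVenus+ in FC and 0 higher. Over all mice 2 of the 7 tested were called lower and 0 higher.

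The 3 Gadd45 genes are shown first by their promoters, and a link between these sequences and the reporter was not tested. The sequences are the bases before the annotated start in RefSeq for GRCm38.p6, written 5′ to 3′ along the gene and ending before the first exon of both RefSeq and GENCODE. Capitals mark exact matches, on either strand, to CACGTG (an E-box), CCAAT and TATAAA.

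Gadd45a: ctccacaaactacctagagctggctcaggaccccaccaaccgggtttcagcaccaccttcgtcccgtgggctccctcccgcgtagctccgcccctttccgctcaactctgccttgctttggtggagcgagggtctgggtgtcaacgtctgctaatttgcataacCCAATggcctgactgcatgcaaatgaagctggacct

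Gadd45b: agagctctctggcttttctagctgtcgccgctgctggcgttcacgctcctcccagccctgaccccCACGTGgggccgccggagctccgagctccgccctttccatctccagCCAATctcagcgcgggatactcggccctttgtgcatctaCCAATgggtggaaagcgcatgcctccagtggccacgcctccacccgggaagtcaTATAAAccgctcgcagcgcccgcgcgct

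Gadd45g: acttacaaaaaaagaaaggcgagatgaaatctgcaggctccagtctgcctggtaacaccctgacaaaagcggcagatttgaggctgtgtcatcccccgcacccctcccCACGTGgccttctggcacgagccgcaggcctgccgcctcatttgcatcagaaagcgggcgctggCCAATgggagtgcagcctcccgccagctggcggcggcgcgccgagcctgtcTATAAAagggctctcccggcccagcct

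The Gadd45a stretch lies at chr6:67037458-67037657 on the minus strand, that of Gadd45b at chr10:80929841-80930072 and that of Gadd45g at chr13:51846425-51846674, both on the plus strand. Gadd45b and Gadd45g each held 1 E-box and 1 TATAAA in the 250 bases before their RefSeq start, and Gadd45a held neither. CCAAT occurred 1, 2 and 1 times in Gadd45a, Gadd45b and Gadd45g. Among all 32851 promoter windows of the same length, 6.02% held the E-box, 12.4% TATAAA and 33.8% CCAAT. The cAMP response element TGACGTCA, present in 1.55% of windows, and its shorter form TGACG, present in 17.8%, were in none of the 3 windows. The motifs were chosen after the sequences were seen, and a match describes the letters only.

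The gene bodies are given in GRCm38 from GENCODE vM21. Gadd45a spans chr6:67035096-67037457, Gadd45b chr10:80930073-80932204 and Gadd45g chr13:51846678-51848468. Tet1 lies at chr10:62804570-62908996, Tet2 at chr3:133463679-133545139 and Tet3 at chr6:83362373-83459084. Dnmt1 lies at chr9:20907209-20959888, Dnmt3a at chr12:3806007-3914443, Tdg at chr10:82629828-82650799 and Apex1 at chr14:50924968-50927139. No other annotated gene overlaps Gadd45b or Gadd45g. Gadd45a, Tet2, Tet3, Dnmt3a, Tdg and Apex1 each overlap a gene on the opposite strand, and since the use of strand in the counting is not given in the sources used here, reads of such pairs cannot be told apart.

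Per kb of annotated exon, the members differed widely in level, and their order depended on the group. Over the 38 libraries the median was 21.6 normalized CPM per kb for Gadd45g and 4.75 for Gadd45b, followed by 3.64 for Dnmt3a, 3.29 for Tet3 and 2.98 for Apex1. Tet2 stood at 1.84, Dnmt1 at 0.725 and Tet1 at 0.200 normalized CPM per kb, while Gadd45a and Tdg had a median of 0. Gadd45b was second in FC dVenus+ and first in NS dVenus+, with medians of 26.8 and 32.3 normalized CPM per kb, but had medians of 0.105 in FC dVenus- and 0 in NS dVenus- and HC dVenus-. Gadd45g came first in both FC groups, NS dVenus- and HC dVenus+, and Dnmt3a in HC dVenus- (7.41). Each neighbouring pair in the order over all libraries overlapped in its range over libraries, and apart from Tet3 every member had a library at 0. Tet3 was counted in 38 of 38 libraries, Dnmt3a in all but 1, Tet1 in all but 2 and Dnmt1 in all but 3. At the other end, Gadd45a had no read in 23 libraries and Tdg none in 25.

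**Figure D1:**
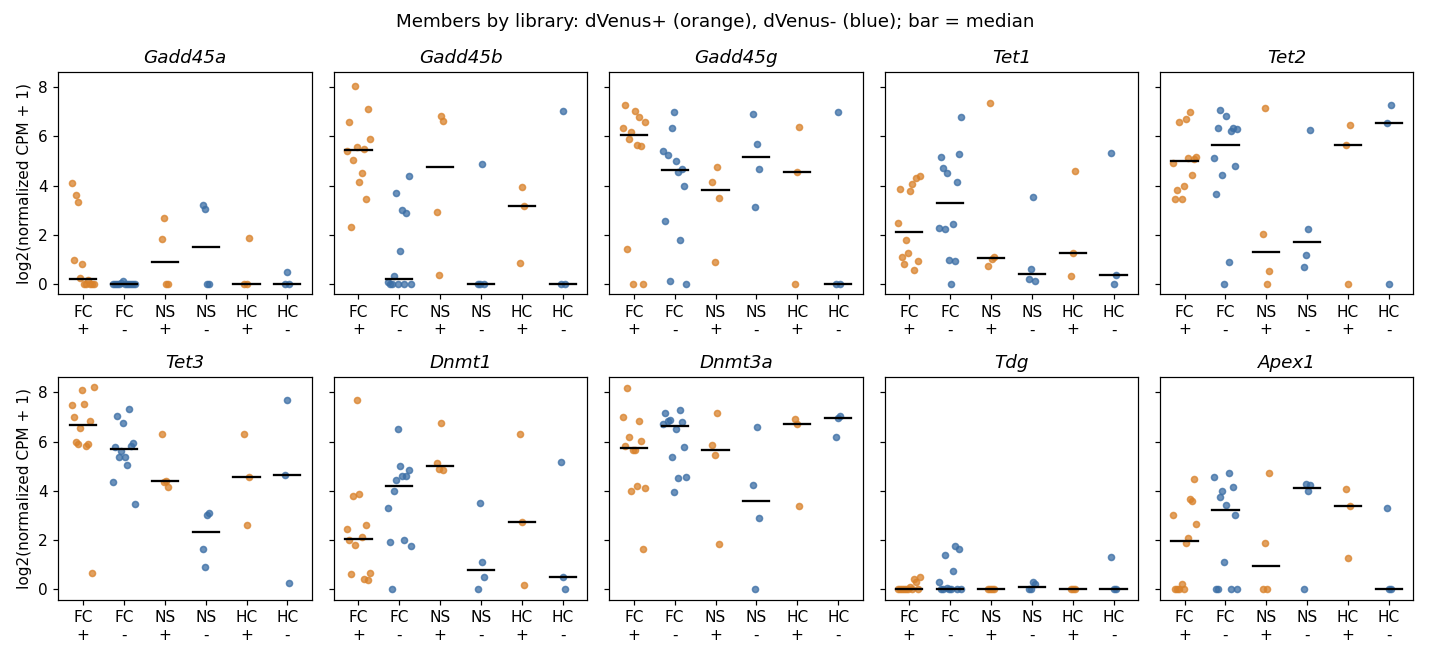
Level of each of the 10 genes in every library, as log2(normalized CPM + 1), with FC, NS and HC on the x axis and + and - for the reporter state. Points are libraries and bars are medians. Gadd45b sits high in FC dVenus+ and near 0 in most FC dVenus- libraries. Tet3 and Dnmt1 separate the reporter states in NS (Tet3 not on CPM by library total). Of genes tested in NS, 3.11% were likewise higher in dVenus+ without overlap.

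Gadd45b was the member that followed the reporter after fear conditioning. In FC dVenus+ libraries its level ranged from 3.94 to 260 normalized CPM (median 42.6), and in FC dVenus- libraries from 0 to 19.9 (median 0.166). It was higher in dVenus+ in 12 of 12 mice, a pattern that 0.536% of the 9709 genes tested in FC shared. The groups overlapped, because 4 dVenus- libraries, those of mice 07, 11, 13 and 14, lay above the lowest dVenus+ library, that of mouse 05. In 5 of the mice the dVenus- library held no Gadd45b read at all.

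The fitted difference of Gadd45b in FC was a log2 fold change of 6.41 ± 1.43 (SE), with an adjusted p of 0.0289 in edgeR's quasi-likelihood test with the mouse as block. Simpler measures were smaller. The summed Gadd45b reads were 4404 in dVenus+ and 789 in dVenus-, a plain ratio of summed CPM of 7.68. The mean within-mouse difference in log2(normalized CPM + 1) was 3.98. A gene was called when the Benjamini-Hochberg adjusted p over all tested genes was under 0.05 and the log2 fold change exceeded 1 in size. By this rule 1 of the 8 members that passed the count filter was called in FC, beside 1.41% of all genes tested (0.577% called higher). Gadd45a and Tdg did not pass that filter, which asked for 10 reads in 12 of the 24 FC libraries.

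This call was a narrow one. Leaving out 1 FC mouse at a time gave adjusted p from 0.0216 to 0.0677, and without mouse 01, 03, 05, 06, 07 or 12 Gadd45b was no longer called, while its log2 fold change stayed between 5.87 and 7.02. Without mice 06, 07 and 14, whose dVenus- libraries held Arc, the log2 fold change was 7.72 ± 2.04 and the adjusted p 0.137. Without the mouse as block it was 4.03 ± 1.08, with an adjusted p of 0.0570. Within the 6 mice of the largest FC experiment it was 3.73, and within the 4 mice of the next 7.30, with neither called.

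In the NS mice Gadd45b had the same direction. The dVenus+ libraries of mice 18, 19, 20 and 21 held 49, 1, 563 and 411 Gadd45b reads, and the dVenus- libraries 0, 0, 360 and 0. It was thus higher in dVenus+ in 4 of 4 mice, which 9.5% of the 8187 genes tested in NS also were. The log2 fold change was 6.94 ± 3.39 with an adjusted p of 0.991 in edgeR, which called 0 genes of any kind in NS (384 genes had an unadjusted p under 0.05, or 4.69%, and DESeq2 called 666). DESeq2's Wald test gave Gadd45b a log2 fold change of 5.96 in NS with an adjusted p of 0.0192.

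The HC mice did not share 1 direction for Gadd45b. The dVenus+ libraries of mice 15, 16 and 17 held 3, 31 and 60 Gadd45b reads, and the dVenus- libraries 0, 637 and 0. Mouse 16 was the only one of the 19 in which the dVenus- library was the higher, and that library held 1 Arc read. The fitted HC value, a log2 fold change of 4.34 ± 4.65 with an adjusted p of 0.984, was positive although the summed Gadd45b reads were fewer in dVenus+ (94 against 637), and without the block it was -2.58.

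Over all 19 mice Gadd45b was higher in dVenus+ in 18. This held for 0.304% of the 8885 genes tested. The log2 fold change was 6.35 ± 1.31 with an adjusted p of 0.00655, and it was called without any 1 mouse in turn (adjusted p from 0.00338 to 0.0165) and without mice 06, 07 and 14 (7.07, adjusted p 0.0287). Without the block it was 3.24 and not called, with an adjusted p of 0.164. In the fit over all mice 1 of 8 members was called, beside 1.72% of all genes tested. The difference between FC and NS in the effect of the reporter on Gadd45b was -0.72 ± 2.00 on the log2 scale (adjusted p = 1 in edgeR), and that between FC and HC 2.03 ± 6.57 (adjusted p = 1).

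**Figure D2:**
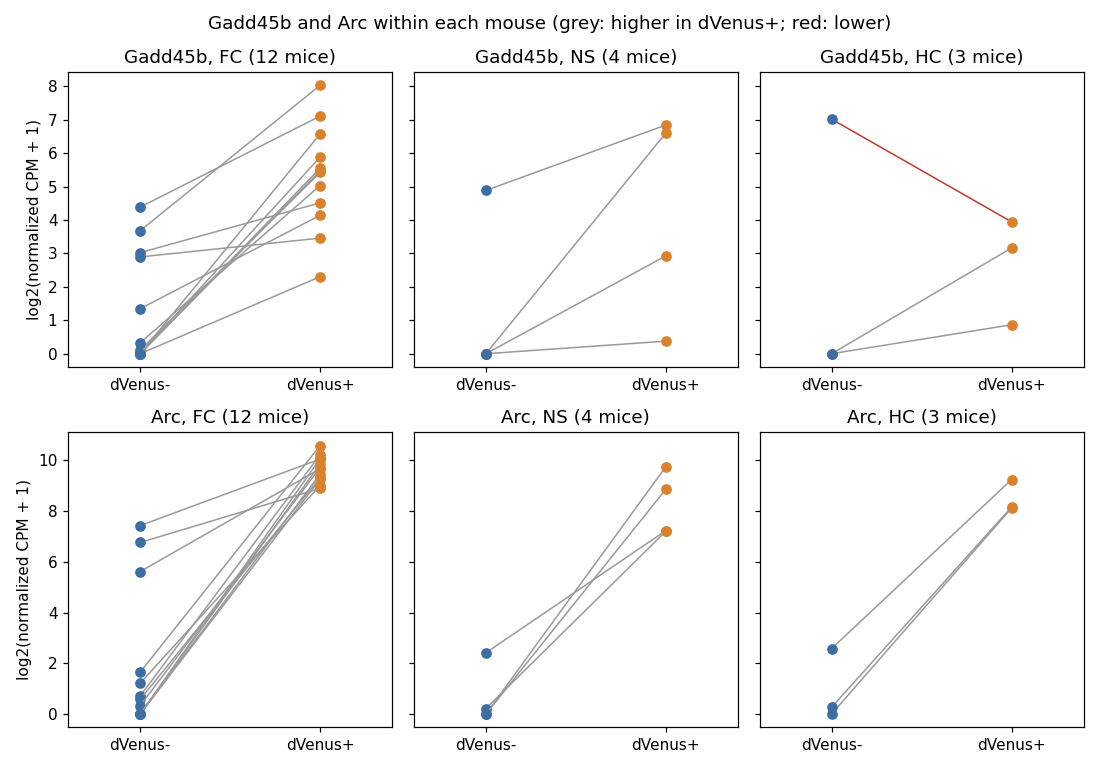
Gadd45b (top) and Arc (bottom) in the dVenus- and dVenus+ library of each mouse, as log2(normalized CPM + 1), for FC, NS and HC. Lines join libraries of 1 mouse and are red where dVenus+ is the lower, which occurs once, for Gadd45b in HC mouse 16.

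Within the dVenus- libraries, Gadd45b and Arc did not always come together. Those of FC mice 07 and 14 held many reads of both, with 269 and 295 Gadd45b reads beside 1095 and 2549 of Arc. That of FC mouse 06 held 1276 Arc reads and 3 of Gadd45b. Conversely, FC mouse 11, NS mouse 20 and HC mouse 16 had 116, 360 and 637 Gadd45b reads in dVenus- beside 8, 2 and 1 Arc reads.

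Markers of microglia moved with the reporter alongside Gadd45b. The summed level of the 10 microglia markers was 30.2 to 2163 normalized CPM in FC dVenus+ libraries (median 288) and 1.38 to 1061 in FC dVenus- libraries (median 59.6). It was higher in dVenus+ in 9 of 12 FC, 4 of 4 NS and 3 of 3 HC mice (10, 3 and 2 on CPM by library total), and 8 of 8 markers tested in FC had a positive log2 fold change, none of them called. In the all-mouse fit C1qa, Csf1r and Ctss were called higher. Among the defining markers, Tmem119 was counted in 6 of 12 FC dVenus+ and 2 of 12 FC dVenus- libraries, and P2ry12 in 8 and 7 of 12. In FC mice 05, 06 and 12 the microglia sum in normalized CPM was the lower in dVenus+. There Gadd45b had 7, 327 and 360 reads in dVenus+ and 0, 3 and 0 in dVenus-. On CPM by library total the microglia sum was lower in 2 of 12 FC mice, and mouse 12 was not among them. The part of microglial RNA in the Gadd45b difference was not tested. The oligodendrocyte marker sum had medians of 479 and 545 normalized CPM in FC dVenus+ and dVenus-, 1239 and 1919 in NS, and 1163 and 2002 in HC. For astrocyte markers these medians were 52.5 and 108 in FC, 606 and 212 in NS, and 412 and 218 in HC. For interneuron markers they were 55.4 and 139 in FC, 236 and 334 in NS, and 220 and 144 in HC. The highest interneuron sum was 2459, in the dVenus- library of FC mouse 10. This sum was higher in dVenus+ in 3 of 12 FC, 1 of 4 NS and 2 of 3 HC mice (3, 0 and 2 on CPM by library total). In FC, Gad1 was lower in dVenus+ in 11 of 12 mice and Gad2 higher in 7 of 12. What such cells gave to the levels of the members was not tested. Because a library pools cells, fewer cells of a type and less RNA per cell cannot be told apart.

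**Figure D3:**
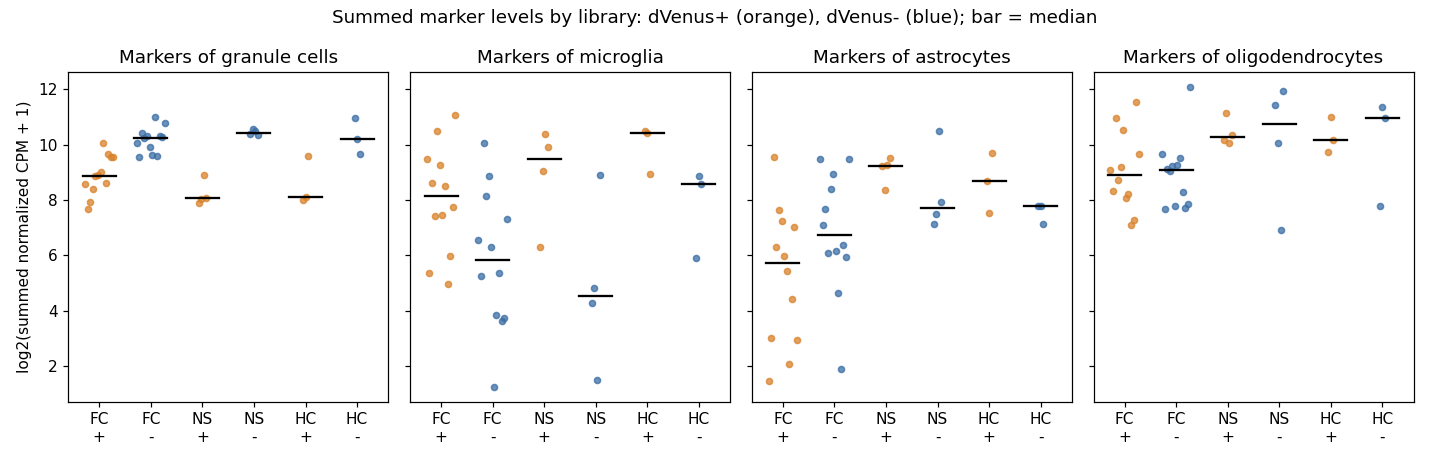
Summed level of the marker genes of 4 cell types in every library, as log2(summed normalized CPM + 1), by training and reporter state. The granule cell sum is lower in dVenus+ in 19 of 19 mice, although Pdzd2 alone is higher in 16 of 19. The microglia sum is higher in 16 of 19 (15 of 19 on CPM by library total).

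Gadd45a was rare, and in FC it was found almost only in dVenus+. The 12 FC dVenus+ libraries held 252 Gadd45a reads in all and the 12 dVenus- libraries 2. Mice 01, 06 and 05 gave 128, 95 and 20 of these reads. The ratio of the summed CPM was 173, with an exact 95% interval of 47.5 to 1439 that covers counting error only. It was higher in dVenus+ in 7 FC mice and lower in none, and in the other 5 both libraries had no read.

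The Gadd45a reads followed the experiment as well as the reporter. All 6 FC mice of the 2 smaller experiments had Gadd45a in dVenus+, and in the largest experiment 1 of 6 mice had it, with 1 read. In NS, mice 18 and 19 had 19 and 18 reads in dVenus+ and 55 and 40 in dVenus-, which is the opposite order, and mice 20 and 21 had none. In HC, mouse 17 had 20 Gadd45a reads in dVenus+ and mouse 16 had 2 in dVenus-. When the filter on low counts was dropped, the log2 fold change of Gadd45a in FC was 4.28 ± 1.57, with an adjusted p of 0.281 in edgeR, and without mice 06, 07 and 14 it was 4.35 ± 1.77 on 156 reads against 1, with an adjusted p of 0.528.

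Gadd45g had the highest median per kb of the family in FC and was not called in any group. In FC dVenus+ libraries it ranged from 0 to 155 normalized CPM (median 64.8) and in FC dVenus- libraries from 0 to 126 (median 23.7). Gadd45g was higher in dVenus+ in 8 of 12 FC mice, with a log2 fold change of 1.46 ± 1.63 and an adjusted p of 0.798. Single pairs stood at opposite ends, as in FC mouse 06 with 603 Gadd45g reads in dVenus+ and 1 in dVenus-, and FC mouse 04 with 0 and 1517.

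In NS the order of Gadd45g was the reverse. The dVenus+ libraries of mice 18 to 21 held 125, 3, 128 and 44 reads and the dVenus- libraries 769, 43, 637 and 305. Gadd45g was lower in dVenus+ in 4 of 4 NS mice, as were 7.66% of genes tested in NS. The log2 fold change was -2.02 ± 2.03 with an adjusted p of 1. The FC minus NS difference was 3.45 ± 2.71, with an adjusted p of 0.885. In HC the 3 dVenus+ libraries held 0, 48 and 621 Gadd45g reads and the dVenus- libraries 0, 619 and 0.

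**Figure D4:**
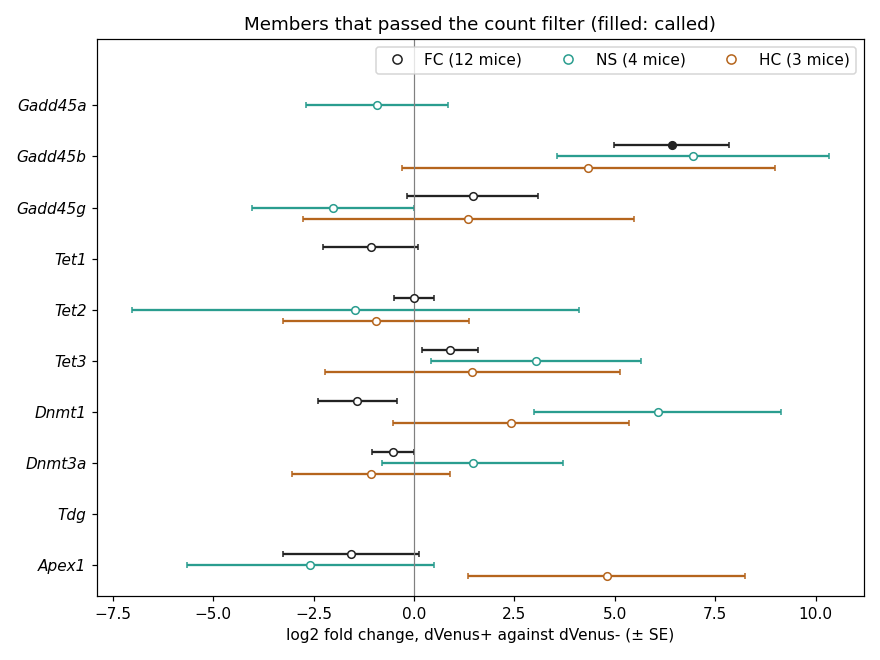
Log2 fold change of dVenus+ against dVenus- (x axis, ± SE) for each of the 10 genes in FC, NS and HC, from edgeR with the mouse as block. Genes that did not pass the count filter have no point. The filled point, Gadd45b in FC at 6.41, is the 1 value that was called.

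Among the Tet dioxygenases, Tet3 was higher in dVenus+ in most mice without being called. Its FC dVenus+ libraries ranged from 0.597 to 294 normalized CPM (median 102) and its FC dVenus- libraries from 9.96 to 157 (median 51.0). It was higher in dVenus+ in 9 of 12 FC mice and in 4 of 4 NS mice. Mouse 14 gave the lowest FC dVenus+ value, with 2 Tet3 reads against 896 in its dVenus- library. In NS the groups did not overlap, with 16.8 to 78.3 normalized CPM in dVenus+ and 0.903 to 7.60 in dVenus-, and 3.11% of genes tested in NS were likewise higher in dVenus+ without overlap. On CPM by library total Tet3 was higher in dVenus+ in 8 of 12 FC and 3 of 4 NS mice, and the NS groups overlapped (8.50 to 93.0 against 0.584 to 11.3 CPM).

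The tests of Tet3 did not pass the threshold. The log2 fold change was 0.90 ± 0.69 in FC (adjusted p = 0.660), 3.03 ± 2.61 in NS (adjusted p = 1) and 1.45 ± 3.67 in HC (adjusted p = 0.990). Over all mice, 15 of 19 had Tet3 higher in dVenus+ (13 of 19 on CPM by library total), with a log2 fold change of 1.45 ± 0.72 and an adjusted p of 0.352 in edgeR. DESeq2's Wald test gave the same size of difference, 1.44, with an adjusted p of 0.0287, in a fit that called 1795 genes where edgeR called 153.

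Tet1 was read from 0.481 to 19.7 normalized CPM in FC dVenus+ (median 3.50) and from 0 to 109 in FC dVenus- (median 10.5). Tet1 was higher in dVenus+ in 5 of 12 FC mice, with a log2 fold change of -1.08 ± 1.17 and an adjusted p of 0.787. In NS, mouse 19 held 540 Tet1 reads in dVenus+ where the other 3 dVenus+ libraries held 5 each. In HC the 3 dVenus+ libraries held 1, 3 and 174 Tet1 reads and the dVenus- libraries 524, 0 and 3.

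The log2 fold change of Tet2 was close to 0 in FC. Its level ranged from 9.84 to 126 normalized CPM in FC dVenus+ (median 31.1) and from 0 to 133 in FC dVenus- (median 53.5). Tet2 was lower in dVenus+ in 8 of 12 FC mice, and its log2 fold change there was 0.00 ± 0.49, with an adjusted p of 1.00. The NS mice 18 to 21 held 23, 477, 0 and 2 Tet2 reads in dVenus+ and 4, 7, 47 and 944 in dVenus-, and the log2 fold change was -1.46 ± 5.57. In HC, Tet2 was lower in dVenus+ in 2 mice and at 0 in both libraries of the other. Over all mice it was lower in 12 and higher in 6 of 19.

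Dnmt1, the maintenance methyltransferase, was mostly lower in dVenus+ in FC and mostly higher in NS and HC. In FC dVenus+ libraries Dnmt1 ranged from 0.298 to 203 normalized CPM (median 3.18), the highest being mouse 04, and the other 11 lay at or below 13.8. In FC dVenus- libraries it ranged from 0 to 90.6 (median 17.8). It was lower in dVenus+ in 9 of 12 FC mice, with a log2 fold change of -1.42 ± 0.99 and an adjusted p of 0.609.

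In NS and HC every mouse had a higher normalized level of Dnmt1 in dVenus+. The NS dVenus+ libraries held 254, 95, 529 and 119 Dnmt1 reads and their partners 0, 57, 15 and 5. The NS groups thus did not overlap (27.8 to 107 against 0 to 10.3 normalized CPM), and 3.11% of genes tested in NS were likewise higher in dVenus+ without overlap. The HC dVenus+ libraries held 286, 12 and 1 Dnmt1 reads and their partners 470, 2 and 0, and after normalization 3 of 3 were higher in dVenus+. All 7 NS and HC mice were thus higher, as were 4.09% of genes with 10 reads in 7 of their 14 libraries. On CPM by library total, without the TMM factors, Dnmt1 was lower in dVenus+ of HC mouse 15 (47.9 against 54.9 CPM) and so higher in 6 of the 7. The summed level of 5 markers of dividing or newborn cells was likewise higher in dVenus+ in 4 of 4 NS, 3 of 3 HC and 4 of 12 FC mice (3, 2 and 2 on CPM by library total). That sum ranged from 8.65 to 44.4 normalized CPM in NS dVenus+ and from 0.952 to 7.44 in NS dVenus-, from 6.49 to 29.9 and from 1.81 to 20.2 in HC, and from 6.86 to 195 and from 13.0 to 162 in FC. Of single genes tested, 9.5% in NS and 17.5% in HC were higher in dVenus+ in all mice. Top2a was at 0 in all 6 HC libraries and Mki67 in all 4 NS dVenus- libraries. The 5 markers did not go 1 way. In HC, Mki67 was lower in dVenus+ in 2 of 3 mice and higher in 0, while Dcx and Birc5 were higher in 3 of 3. In FC, Dcx was lower in dVenus+ in 10 of 12 mice and Mki67 higher in 9 of 12. The part of such cells in the Dnmt1 values was not tested. The log2 fold change of Dnmt1 was 6.07 ± 3.07 in NS (adjusted p = 0.991) and 2.42 ± 2.94 in HC (adjusted p = 0.984).

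The FC minus NS difference for Dnmt1 was -7.49 ± 2.37 on the log2 scale, with an unadjusted p of 0.00390 and an adjusted p of 0.876 in edgeR. The FC minus HC difference for Dnmt1 was -4.03 ± 2.23 (adjusted p = 0.774), smaller in size than those of Apex1 (-6.84 ± 4.25) and Tet1 (-5.04 ± 4.35). In the FC minus NS test 0 of the 10 members and 0 of all 14075 genes were called, while 5.42% of genes had an unadjusted p under 0.05 and the median over all genes was -0.69. DESeq2's Wald test gave -7.27 with an adjusted p of 5.46e-06 and called 1192 genes. Within FC, Dnmt1 was lower in dVenus+ in 6 of 6 mice of the largest experiment, which 4.41% of genes tested in FC also were, in 2 of 4 mice of the next and in 1 of 2 of the smallest. The contrast with NS and HC cannot be told apart from the experiment.

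**Figure D5:**
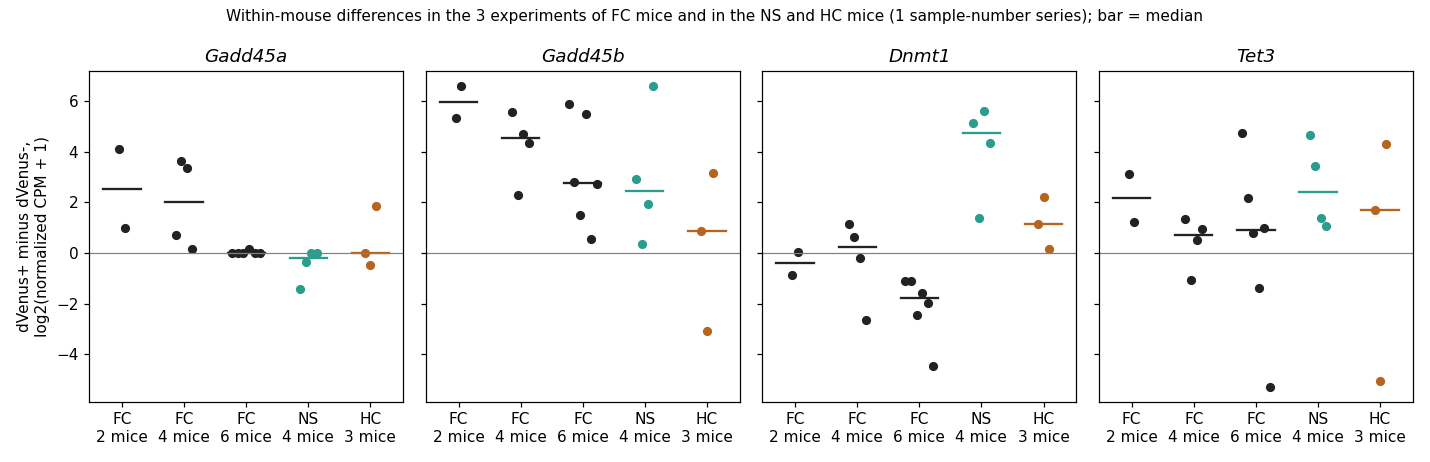
Within-mouse difference, dVenus+ minus dVenus-, in log2(normalized CPM + 1), for Gadd45a, Gadd45b, Dnmt1 and Tet3 in the 3 FC experiments and in the NS and HC mice. Points are mice and bars are medians. Gadd45a lies at 0 in 5 of 6 mice of the largest FC experiment, and Dnmt1 lies below 0 in 6 of 6 of these and above 0 in 7 of 7 NS and HC mice (6 of 7 on CPM by library total).

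Dnmt3a, the de novo methyltransferase of neurons, was read in all but 1 library. It ranged from 2.09 to 286 normalized CPM in FC dVenus+ (median 52.4) and from 14.4 to 155 in FC dVenus- (median 97.4). Dnmt3a was lower in dVenus+ in 9 of 12 FC mice, with a log2 fold change of -0.53 ± 0.52 and an adjusted p of 0.761. It was higher in dVenus+ in 3 of 4 NS mice (1.46 ± 2.26) and in 1 of 3 HC mice (-1.07 ± 1.96), and on CPM by library total in 2 of 4 and 0 of 3.

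Tdg, the glycosylase that removes oxidised methylcytosine, was barely read, with 107 reads in all 38 libraries and at most 31 in 1. In FC its dVenus+ libraries held 9 reads and its dVenus- libraries 73, of which 42.5% came from 1 library. The NS and HC dVenus+ libraries held no Tdg read. By counting error only, a count of 0 allows an expected count of up to 3 in a library, and transcripts missed before sequencing are not covered. The NS and HC dVenus- libraries held 5 and 20 Tdg reads, the 20 from 1 HC library. The Tdg promoter was the only member promoter window with the full TGACGTCA.

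Apex1, the abasic site endonuclease, ranged from 0 to 21.2 normalized CPM in FC dVenus+ (median 2.94) and from 0 to 25.8 in FC dVenus- (median 8.35). It was lower in dVenus+ in 7 of the 10 FC mice with any Apex1 read, with a log2 fold change of -1.57 ± 1.70 and an adjusted p of 0.789. In HC the dVenus+ libraries held 58, 3 and 72 Apex1 reads and their partners 120, 0 and 0. After TMM scaling 3 of 3 mice were higher in dVenus+, as were 17.5% of genes tested in HC, but on CPM by library total mouse 15 was lower (9.71 against 14.0 CPM). The HC log2 fold change was 4.80 ± 3.45, with an adjusted p of 0.984.

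Counted together, 4 of the 8 members tested in FC had a positive and 4 a negative log2 fold change, with a median of -0.26 beside -0.21 over all genes tested, of which 43.1% were positive. In NS the split was also 4 and 4, with a median of 0.27 beside 0.20 and 53.9% positive over all genes. In HC 5 of 7 were positive, with a median of 1.45 beside 0.11 and 51.6% positive over all genes. In HC 0 members were called, beside 0.0264% of genes in edgeR (297 genes, or 3.91%, had an unadjusted p under 0.05, and DESeq2 called 0 members there). The FC minus HC test called 0 of 10 members and 0 genes, with 6.34% of genes under an unadjusted p of 0.05, and DESeq2 called 0 members in it.

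The wider pathway was followed through 7 lists with 51 entries. Of the 2 growth factor genes linked to Gadd45b, Bdnf, which encodes brain-derived neurotrophic factor, rose with the reporter. Bdnf ranged from 185 to 821 normalized CPM in FC dVenus+ (median 521) and from 22.6 to 202 in FC dVenus- (median 80.7), and was higher in 19 of 19 mice (18 of 19 on CPM by library total). Its log2 fold change was 2.50 ± 0.33 in FC (adjusted p = 0.000633) and 2.70 ± 0.39 over all mice (adjusted p = 0.000246). Without mice 06, 07 and 14 it was 2.61 ± 0.37 in FC (adjusted p = 0.00543) and 2.76 ± 0.44 over all mice (adjusted p = 0.00160). Fgf1 did not pass the filter in FC, where it was read from 0 to 136 normalized CPM in dVenus+ and from 0 to 44.5 in dVenus-, and was higher in 6 mice and lower in 2.

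Among the 9 partners of the Gadd45 proteins, 6 passed the filter in FC and 0 of these were called. Their median log2 fold change was -1.32, beside -0.21 over all genes tested. Cdkn1a, which encodes the cell cycle inhibitor p21 and is a binding partner of Gadd45 proteins, had 10 or more reads in 9 of 12 FC dVenus+ libraries and in none of the 12 FC dVenus- libraries, with 1896 reads against 10 in all. It therefore missed the filter of 12 libraries, and without the filter it was called, with a log2 fold change of 9.40 ± 1.71 and an adjusted p of 0.00701 in FC and 9.24 ± 1.46 and 0.000134 over all mice. These unfiltered fits called 133 of 18089 genes in FC and 190 of 18646 over all mice. Without mice 06, 07 and 14 Cdkn1a was also called, at 10.14 ± 1.49 in FC (adjusted p = 0.00329). In NS and HC it was read in dVenus+ of 2 of 4 and 2 of 3 mice and in none of the dVenus- libraries. Map3k4, a kinase that Gadd45 proteins activate, stood at -2.0 ± 0.83 (adjusted p = 0.276) and Pcna, the replication clamp, at -1.53 ± 0.97 (adjusted p = 0.572).

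The other lists held no gene that edgeR called in FC, NS, HC or all mice. Of the 9 other writers and cofactors, 5 were tested in FC, and the lowest p belonged to Mat2b, a subunit of methionine adenosyltransferase (-0.64 ± 0.59), and to Uhrf2 (-1.32 ± 1.22). All 9 methyl-CpG readers were tested and 7 had positive values, with Mbd2 at 2.18 ± 1.12 (adjusted p = 0.446) and Zbtb4 at -2.19 ± 1.06 (adjusted p = 0.403). DESeq2's Wald test called Mbd2, Zbtb4 and Map3k4 in FC, with adjusted p of 0.0168, 0.0197 and 0.00966, among 1635 genes. Of 13 repair genes 8 were tested and 7 had negative values, with Apex2 at -1.86 ± 1.64 and Xrcc1, a scaffold of strand break repair, at -1.45 ± 1.86. Over all genes tested in FC, 43.1% had a positive log2 fold change and the median was -0.21. Of 5 Tet partners and cosubstrate enzymes 4 were tested, with Cxxc5 at -1.96 ± 1.16 and Ogt, the O-GlcNAc transferase that binds Tet proteins, at 0.52 ± 0.47. None of the 4 cytidine deaminases passed the filter in any group.

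The genes whose level ran most alike with each member were sought among 8884 genes over the 38 libraries by Spearman's rho, which is given as a description since the points share mice, depth and experiment. For Gadd45b these included Inhba, which encodes an activin subunit (rho 0.771), and Arc (0.673). For Gadd45g they were Ubap1 (0.705), Ide (0.641) and Ran (0.635), and for Tet3 4932438A13Rik (0.709), G630055G22Rik (0.682) and Cnot1 (0.636). Dnmt1 ran most like Sv2a (0.654), Mllt6 (0.634) and Iglon5 (0.630), and Dnmt3a like Pnn (0.591), Rufy2 (0.580) and Sptbn4 (0.554). Tet1 had Anapc7 (0.632), Bcl9l (0.622) and Lrtm2 (0.598), Tet2 had Nrd1 (0.618), Rmdn1 (0.612) and Mdm4 (0.606), and Apex1 had Fam69b (0.679), Nagk (0.604) and Tstd3 (0.60). Over the 19 within-mouse differences the leading genes for Gadd45b were Mob4 (0.770), Sema3e (0.735) and Spg21 (0.702), so the choice of measure changed the names.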

How the data were processed

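The authors aligned 50-base single reads of Smart-seq2 libraries to mm10 with TopHat2 2.0.13, kept unique alignments and counted them on NCBI gene models with HTSeq 0.6.0, and the deposited values used here are these raw counts per gene, for 38 libraries. The 5 summary entries that name no gene were set aside, and reads on no feature were 16.4% to 59.7% and ambiguous reads up to 1.58% of a library. Amplified reads without molecular identifiers are not independent molecules, so intervals cover counting error only. The members and lists were chosen with earlier results of these data known.

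Groups came from sample titles. The free-text descriptions of NS and HC libraries run in another order than titles and sample numbers, which match each other. Counts were scaled by TMM, giving normalized CPM, and tested in edgeR 4.0.16 (R 4.3.3, quasi-likelihood, older method, the default of this version) with the mouse as block, for genes that reached 10 counts in 12 (FC), 4 (NS), 3 (HC) or 19 (all mice) libraries, and in 3 for FC minus NS or HC. The SE is the log2 fold change divided by the root of F. DESeq2 1.42.0, other scalings, filters, thinning, blocks and left-out mice were alternatives. The pairs come from 1 animal each, although deviations of partners correlated little (median 0.036 in FC, -0.012 in NS, 0.020 in HC).

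The text names all members, Arc, list genes called in any fit or with the 2 lowest p in FC, and the 3 genes most like each tested member, except for results that are not reported here. A series-wide table of fewer genes was not used here.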

Additional observations from a re-analysis of the deposited data

Results flagged for a closer look

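Among the NS mice, where a group has 4 libraries, 9 gene and group combinations of 19 tested had 1 library beyond Dixon's 95% critical value, which chance would give in about 1 in 20 for values that follow a normal distribution. Over all genes that passed the NS count filter, 20.5% of 16369 such combinations were past it. The 19 also hold Tet1 and Tdg, which did not pass that filter, so the 2 shares cover unlike sets of genes. The values are normalized CPM, each set beside the nearest of the other 3 libraries. In NS dVenus+, Tet1 stood at 161 in mouse 19 (nearest 1.17), Tet2 at 142 in mouse 19 (3.10), Tet3 at 78.3 in mouse 18 (20.4), Dnmt1 at 107 in mouse 20 (34.2) and Apex1 at 25.5 in mouse 21 (2.68). In NS dVenus-, Gadd45b stood at 28.5 in mouse 20 (nearest 0), Tet1 at 10.6 in mouse 20 (0.542), Tet2 at 75.6 in mouse 21 (3.73) and Dnmt1 at 10.3 in mouse 19 (1.19). In all 9 cases the library that stood apart was the highest of its group. The FC groups, with 12 libraries, and the HC groups, with 3, were not examined in this way.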

How the results depend on the processing

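The count of members called in FC, which was 1 (Gadd45b), fell to 0 without the replicate block, without mice 06, 07 and 14, within the experiment of 6 mice, within that of 4 mice, and with the number of detected genes as a covariate (Gadd45b 6.84, adjusted p = 0.0614), and lay between 0 and 1 when single mice were left out. The same count over all mice, also 1, was 0 without the block and 2 with DESeq2's Wald test (Gadd45b and Tet3). In NS it was 0, and 2 with DESeq2 (Dnmt1, 6.15, and Gadd45b). For FC minus NS it was 0, and 1 with DESeq2 (Dnmt1). DESeq2's size factors, no filter and the edgeR 4 method left all these counts as they were, as did thinning each pair to the smaller total in FC, NS and all mice, where it was run, and the older edgeR method listed as an alternative was the one used. The edgeR 4 method gave Gadd45b 4.53 in FC (adjusted p = 0.00108). The edgeR 4 method and the set without mice 06, 07 and 14 were chosen after seeing the data, as were the counts of directions on CPM by library total. Leaving out single mice was not run for FC minus NS or HC.

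Genes called in FC numbered 137, against 1635 with DESeq2, 424 with the edgeR 4 method, 45 without mice 06, 07 and 14, 72 with the covariate, and 0 and 3 within the experiments of 6 and 4 mice. Leaving out single FC mice gave 56 to 118. In NS, with 0 in the fit reported, 13 genes were called without the filter, 4 with the edgeR 4 method, 1 with DESeq2's size factors and 0 to 12 with single mice left out. In HC, with 2, there were 5 without the filter, 4 after thinning, 625 with DESeq2 and 0 with its size factors, without the block or with the edgeR 4 method. Over all mice, with 153, there were 547 with the edgeR 4 method and 77 without mice 06, 07 and 14. DESeq2 called 1583 genes for FC minus HC.

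Replicate block: the pairs come from the same animal, and without the block the FC log2 fold changes of Tet2, Dnmt1 and Mat2b turned to -0.28, 0.0664 and 0.0572, that of Tet2 in NS to 0.78, those of Gadd45b, Gadd45g and Tet3 in HC to -2.58, -0.31 and -1.17, and that of Dnmt3a over all mice to 0.10.

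Other values that changed sign were, in FC, Tet2 at -0.0433 without the filter and -0.00781 with the edgeR 4 method, Xrcc1 at 0.32 without mice 06, 07 and 14 and 0.00361 within 6 mice, Apex1 at 0.95 within 6 mice, and Gadd45g at -2.28, Tet2 at -0.33, Dnmt1 at 0.34 and Dnmt3a at 0.24 within 4 mice. With DESeq2, Gadd45a in NS stood at 0.14 and Gadd45b for FC minus NS at 1.00. Over all mice without 06, 07 and 14, Tet1 stood at 0.76 and Dnmt3a at 0.0439. With single mice left out, sign changes occurred for Tet2 in FC (-0.32 to 0.22) and NS (-5.22 to 2.12), for Tet1 (-0.44 without mouse 16), Gadd45g (-2.36 to 3.85), Tet3 (-2.0 to 4.02) and Dnmt3a (-2.13 to 0.0108) in HC, and over all mice for Gadd45g (-0.13 to 0.64), Tet1 (-0.46 to 0.22) and Tet2 (-0.48 to 0.0117).

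With 10 cells a library, 10 of 38 libraries held no Gadd45b read, and a count of 0 does not show absence in the tissue.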
